A study of Mus musculus with 8 samples.

Results

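The genes described here are 10 markers and drivers of the epithelial-mesenchymal transition, Cdh1, Cdh2, Epcam, Snai1, Snai2, Zeb1, Zeb2, Twist1, Vim and Fn1. They were taken by name, as every non-control probe of the array whose transcript accession maps to one of these symbols. All 10 were found, on 12 probes, among 32530 genes and unnamed transcripts on the array. The cells were R1, a pluripotent mouse embryonic stem cell line, measured after differentiation in embryoid bodies, the aggregates that such cells form in suspension, for 48 h in every group. The cells had been transfected with a control siRNA (Control, 3 arrays), with a first siRNA against CnAb1 (siRNA 1, 3 arrays) or with a second one (siRNA 2, 2 arrays), and total RNA was taken 48 h after transfection. CnAb1 is a variant form of calcineurin Aβ, a phosphatase subunit encoded by Ppp3cb. All groups share the same cell line, so the data speak for 1 line, and the labels do not say which sequences the siRNAs have. Each array is a 1-colour Agilent array, and levels are given as log2 processed signal relative to the array's own 75th percentile, so that 0 is the level of a probe at that percentile and a difference of 1 is a 2-fold difference.

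In the epithelial-mesenchymal transition, cells joined by junctions give up apical-basal polarity and become separate, motile cells. E-cadherin (Cdh1) holds epithelial cells together, and the transcription factors of the Snail, Zeb and Twist families repress it by binding E-box sequences in its regulatory DNA. In the mouse embryo the pluripotent epiblast is an epithelium, and its cells pass through this transition at the primitive streak to form mesoderm and endoderm. Embryonic stem cells express E-cadherin and Epcam, and embryoid bodies follow part of this path.

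All 10 genes were measurable in these cells, and none passed the test between the siRNA arrays and Control. Each had a probe well above background on all 8 arrays, with a signal at least 3.65 times the dimmest one that the same array had well above background. In limma's test with Benjamini-Hochberg adjustment over 22427 genes, 0 of 10 members passed an adjusted p of 0.05 in any of the 4 comparisons, against a background of 0% of all genes tested in each. At an unadjusted p under 0.05, again 0 of 10 members passed in each comparison. Of all genes, 3.58% passed that limit for the mean of both siRNAs against Control, 3.5% for siRNA 1 against Control, 3.35% for siRNA 2 against Control and 3.36% for siRNA 2 against siRNA 1. The 3 siRNA comparisons share the Control arrays. The labels do not tie the replicates to separate cultures, so the p-values rest on a spread that may be technical, and precision is limited by how few arrays there are.

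Facts of the whole series bear on how the values are read. On each array 68.0% to 75.1% of the 43020 non-control spots stood well above background, 0 spots were saturated, and the 75th percentile of the signal lay between 838 and 1031. The arrays lay on 3 slides. All first replicates shared slide 1. Control replicate 2 shared slide 2 with siRNA 1 replicate 3, and Control replicate 3 shared slide 3 with the second replicates of both siRNAs. The position on the slide was 1 for Control, 2 for siRNA 1 and 3 for siRNA 2 throughout, so group and position cannot be told apart. The probe for Ppp3cb (A_52_P306396) was lower by 0.17 (SE 0.12) in both siRNAs against Control, with limma's adjusted p of 0.9999, and it is not known here whether this probe reads the CnAb1 variant. On every array 15 of 15 markers of naive embryonic stem cells and 6 of 6 of the formative and primed epiblast were well above background. So were 19 to 23 of 23 endoderm markers and 10 to 12 of 12 primitive streak and mesoderm markers. For trophectoderm and for neuroectoderm it was 5 to 6 of 6, so detection does not set the labelled cell type apart. Of 13 fibroblast markers, 10 to 12 were well above background, with a summed level between 4.23 and 5.45 times the 75th percentile, and those of endoderm summed to between 94.5 and 148.2. In bulk RNA, fewer cells of a type and less RNA per cell cannot be told apart.

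Promoters are shown for the 4 members that had 1 start each among the windows read. Windows of 250 bases before the start were read from RefSeq (GRCm38.p6), all on the plus strand, for Epcam (chr17:87635729-87635978), Snai1 (chr2:167537945-167538194), Twist1 (chr12:33957421-33957670) and Vim (chr2:13574061-13574310). Capitals mark the E-box CACCTG, which Snail and Zeb factors can bind, or its reverse complement CAGGTG on the other strand.
Epcam: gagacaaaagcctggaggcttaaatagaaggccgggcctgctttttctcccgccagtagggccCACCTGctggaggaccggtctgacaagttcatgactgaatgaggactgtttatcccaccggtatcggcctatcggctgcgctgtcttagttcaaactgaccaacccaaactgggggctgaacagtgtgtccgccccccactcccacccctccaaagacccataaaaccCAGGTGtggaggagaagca
Snai1: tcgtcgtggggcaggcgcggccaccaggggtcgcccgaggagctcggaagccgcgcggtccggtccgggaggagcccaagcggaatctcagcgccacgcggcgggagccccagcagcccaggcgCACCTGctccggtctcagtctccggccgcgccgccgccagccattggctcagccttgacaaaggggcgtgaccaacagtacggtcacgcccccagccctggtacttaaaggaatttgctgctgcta
Twist1: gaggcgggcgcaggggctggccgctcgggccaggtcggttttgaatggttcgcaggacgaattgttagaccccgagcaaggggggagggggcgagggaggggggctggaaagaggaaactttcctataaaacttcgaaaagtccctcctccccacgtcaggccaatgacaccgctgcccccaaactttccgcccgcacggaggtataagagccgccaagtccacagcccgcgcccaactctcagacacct
Vim: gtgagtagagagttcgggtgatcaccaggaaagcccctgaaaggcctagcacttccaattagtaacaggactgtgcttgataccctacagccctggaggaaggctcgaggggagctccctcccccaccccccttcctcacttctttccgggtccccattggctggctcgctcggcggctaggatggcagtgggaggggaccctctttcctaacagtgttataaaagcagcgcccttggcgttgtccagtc
The Epcam window held 2 such E-boxes, which start 187 and 19 bases before the transcription start, and the Snai1 window held 1, which starts 126 bases before it. Those of Twist1 and Vim held 0, as did the windows of Zeb2. Of 32851 promoter windows of the same length, 17.2% held the motif and 2.06% held 2 or more. A match is a description of the letters in the window, and windows were read for only 5 of the 10 members. No window was read for Cdh1, Cdh2, Fn1, Snai2 or Zeb1, so the E-boxes of E-cadherin itself are not described here.

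The epithelial genes varied little between arrays. Cdh1 (probe A_51_P137336, mean of 10 spots) had log2 levels of 3.40, 3.21 and 3.21 in Control, 3.16, 3.14 and 3.22 in siRNA 1, and 3.23 and 3.39 in siRNA 2. The ranges of the siRNA and Control arrays overlapped, and the whole spread over 8 arrays was 0.26. Cdh1 had a mean of 3.27 ± 0.11 (SD, n = 3) in Control, 3.17 ± 0.04 (SD, n = 3) in siRNA 1 and 3.31 ± 0.11 (SD, n = 2) in siRNA 2. Both siRNAs against Control differed by -0.03 (SE 0.08, 95% interval -0.22 to 0.16) with limma's adjusted p of 0.9999. A 2-fold difference in E-cadherin RNA, in either direction, lay outside this interval.

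Epcam encodes a homophilic adhesion molecule of epithelia and embryonic stem cells. Its levels (A_52_P447944) were 2.17, 1.91 and 2.18 in Control, 2.20, 2.17 and 2.26 in siRNA 1, and 2.10 and 2.07 in siRNA 2. Control replicate 2 was the lowest array, and the groups overlapped. The difference between both siRNAs and Control was 0.06 (SE 0.09, 95% interval -0.14 to 0.27).

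Between the siRNAs, 2 of 10 members had groups that did not overlap, close to the 19.1% of all genes that did so, and nothing particular to the members is read from it. These were Cdh1 and Epcam. Both siRNA 2 arrays lay above all 3 siRNA 1 arrays for Cdh1 and below them for Epcam. Among all genes 7.26% were separated and higher in siRNA 2, and 11.8% separated and lower. The differences were 0.14 (95% interval -0.10 to 0.38) for Cdh1 and -0.12 (95% interval -0.38 to 0.13) for Epcam, and neither passed limma's test (adjusted p = 1 for each). In the other 3 comparisons 0 of 10 members were separated, against 3.44% of genes for both siRNAs against Control, 7.9% for siRNA 1 against Control and 16.9% for siRNA 2 against Control.

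**Figure D1:**
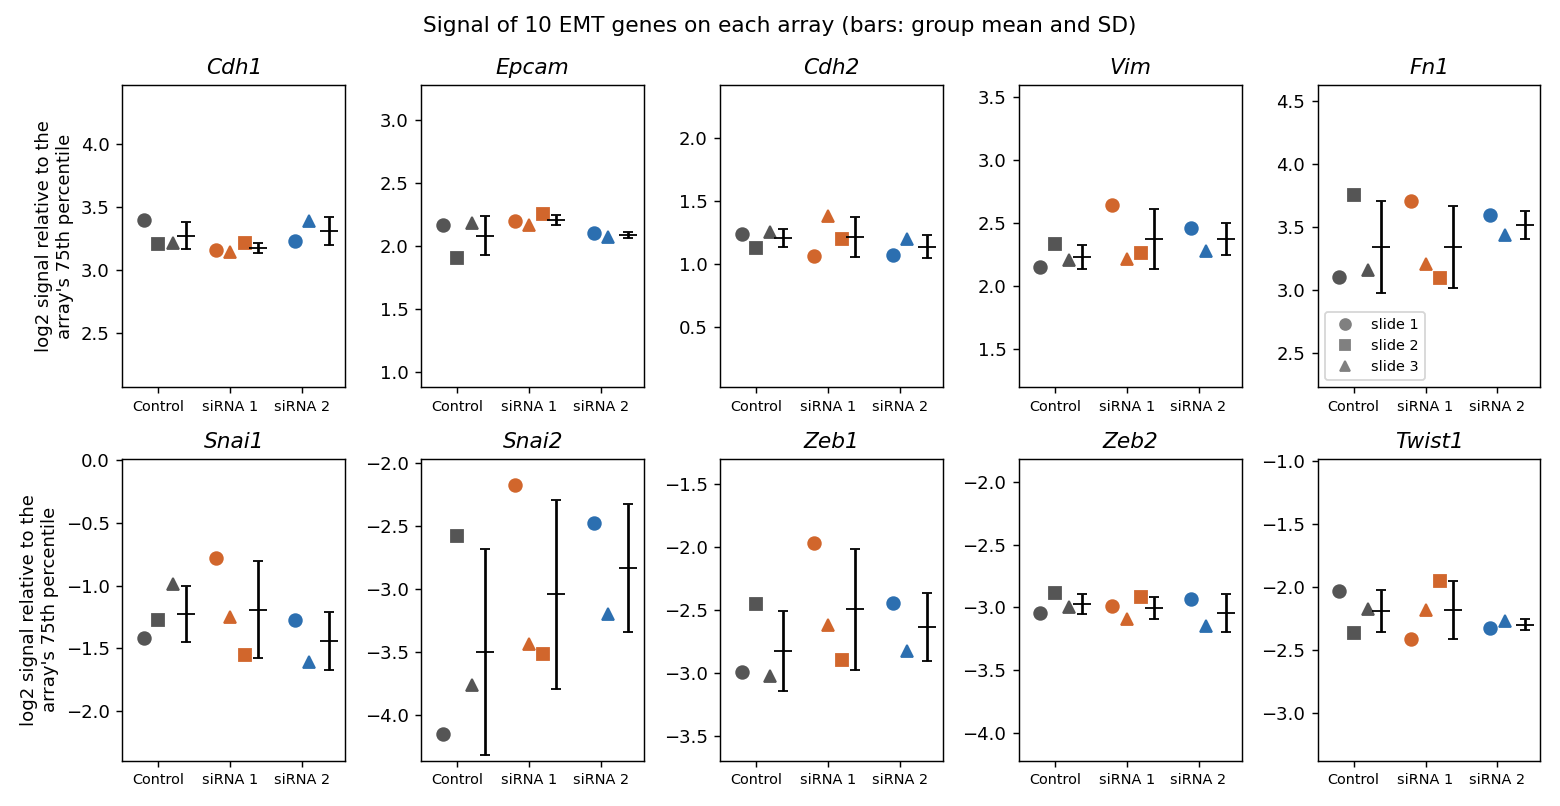
Log2 signal of the 10 genes relative to the array's 75th percentile (y axis, every panel spanning the same number of log2 units) on each of the 8 arrays by group (x axis); marker shape gives the slide, and the bar with whiskers is the group mean with its SD. The arrays of a gene such as Cdh1 lie within 0.26 of each other, while those of Snai2 span 1.97, and the groups overlap between the siRNAs and Control for every gene.

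The mesenchymal genes overlapped between the siRNA arrays and Control as well. N-cadherin (Cdh2), which replaces E-cadherin in mesenchymal and neural cells, had levels of 1.24, 1.13 and 1.26 in Control, 1.07, 1.38 and 1.20 in siRNA 1, and 1.07 and 1.20 in siRNA 2 on probe A_55_P2029711. The siRNA arrays lay on both sides of the Control arrays, and the difference was -0.03 (95% interval -0.25 to 0.19). The other Cdh2 probe (A_55_P2000133) lay between 0.34 and 0.56 and gave a difference of -0.01.

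Vimentin (Vim), the intermediate filament of mesenchymal cells, had levels of 2.15, 2.33 and 2.21 in Control (probe A_51_P392687), 2.64, 2.22 and 2.26 in siRNA 1, and 2.46 and 2.28 in siRNA 2. Replicate 1 of each siRNA was highest, and 2 of 3 Control arrays lay below every siRNA array. The difference was 0.14 (SE 0.12, 95% interval -0.14 to 0.43), and with 1 array left out it lay between 0.076, without siRNA 1 replicate 1, and 0.20, without Control replicate 2. Without the arrays of slide 1, which leaves siRNA 2 with 1 array, it was -0.0093.

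Fibronectin (Fn1), an extracellular matrix protein on which migrating cells move, had levels of 3.10, 3.76 and 3.15 in Control (probe A_55_P2130178), 3.71, 3.21 and 3.10 in siRNA 1, and 3.59 and 3.43 in siRNA 2. A Control array and an siRNA 1 array were the highest, and other arrays of these same groups were the 3 lowest. The difference was 0.09 (SE 0.20, 95% interval -0.39 to 0.56), and the group means of Control and siRNA 1 were both 3.34.

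Among the transcription factors, Snai2 (Slug) showed the largest fitted difference of the 10 members in the comparisons with Control, and the largest spread within groups. Its levels (probe A_51_P305547) were -4.15, -2.58 and -3.76 in Control, -2.18, -3.44 and -3.52 in siRNA 1, and -2.48 and -3.20 in siRNA 2. A Control array was the lowest of all 8, and Control replicate 2 was exceeded only by replicate 1 of each siRNA. The processed signal of the probe lay between 51.9 and 189.9, above the lowest signal well above background, which was 9.53 to 14.2 on these arrays. The difference of both siRNAs against Control was 0.56 (SE 0.46, 95% interval -0.53 to 1.64), an interval that holds both 0 and a 2-fold higher level.

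The direction for Snai2 turned without slide 1. On that slide, the siRNA arrays were 1.97 and 1.68 above the Control array, on slide 2 siRNA 1 was 0.94 below Control, and on slide 3 the siRNA arrays were 0.33 and 0.57 above it. Without the arrays of slide 1, which leaves siRNA 2 with 1 array, the difference was -0.16. With 1 array left out at a time it lay between 0.23, without Control replicate 1, and 1.02, without Control replicate 2.

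Snai1 (Snail), a repressor of E-cadherin at gastrulation, had levels of -1.42, -1.27 and -0.99 in Control (probe A_51_P165087), -0.78, -1.25 and -1.55 in siRNA 1, and -1.27 and -1.61 in siRNA 2. The highest array and the 2 lowest were siRNA arrays. Both siRNAs differed from Control by -0.09 (95% interval -0.55 to 0.37), siRNA 1 by 0.03 and siRNA 2 by -0.21 (95% interval -0.79 to 0.36).

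Zeb1, a zinc finger repressor of epithelial genes, had levels of -2.99, -2.45 and -3.03 in Control (probe A_52_P546635), -1.97, -2.62 and -2.90 in siRNA 1, and -2.44 and -2.82 in siRNA 2. Control replicates 1 and 3 were the lowest arrays and Control replicate 2 was among the 3 highest. The difference was 0.26 (SE 0.24, 95% interval -0.32 to 0.84). Without the arrays of slide 1, with 1 siRNA 2 array left, it was -0.05. With 1 array left out it lay between 0.13, without siRNA 1 replicate 1, and 0.44, without Control replicate 2.

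Zeb2, a relative of Zeb1, varied little, with levels of -3.04, -2.89 and -3.00 in Control (probe A_52_P596008), -2.99, -3.09 and -2.92 in siRNA 1, and -2.93 and -3.15 in siRNA 2. The difference was -0.05 (95% interval -0.25 to 0.16), with the groups overlapping. Its other probe (A_52_P526372) was not well above background on any array, with a processed signal between 2.03 and 4.55.

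Twist1, a basic helix-loop-helix factor of mesoderm and neural crest, had levels of -2.03, -2.36 and -2.18 in Control (probe A_52_P20906), -2.41, -2.18 and -1.95 in siRNA 1, and -2.33 and -2.27 in siRNA 2. An siRNA 1 array was the lowest and another was the highest. The difference was -0.05 (95% interval -0.35 to 0.25).

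**Figure D2:**
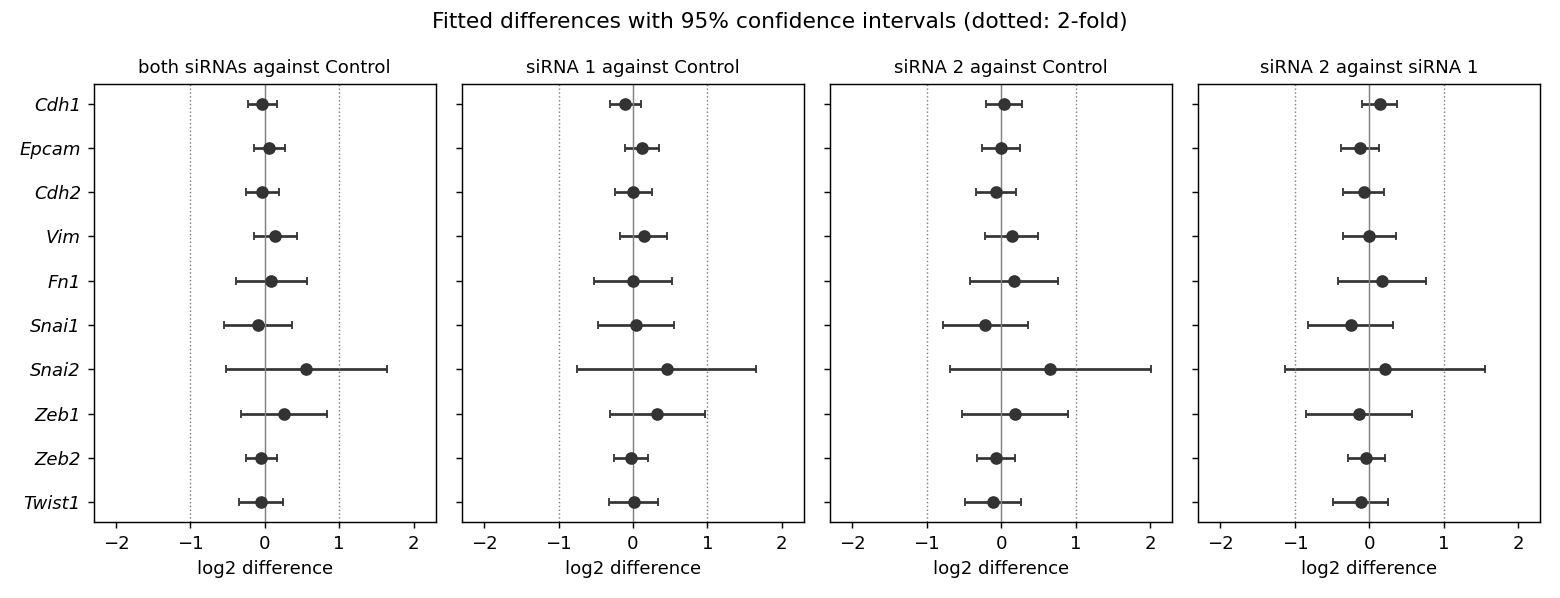
Fitted log2 difference (x axis) of each of the 10 genes (y axis) with its 95% interval from limma in the comparisons of the siRNAs with Control and with each other; dotted lines mark a 2-fold difference. Every interval includes 0, and those of Snai2 are the widest, at -0.53 to 1.64 for both siRNAs against Control.

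The members ranged widely in how much arrays of 1 group varied. The SD within groups was 0.74 for Snai2, larger than that of 96.9% of genes tested, 0.38 for Zeb1 (85.7%), 0.31 for Fn1 (78.5%) and 0.30 for Snai1 (77%). It was 0.09 for Cdh1 (17.5%), 0.10 for Zeb2 (22.6%), 0.10 for Epcam (23%) and 0.12 for Cdh2 (29.9%), against a median of 0.17 over all genes. Twist1 and Vim, with 0.18 and 0.17, stood near that median. The genes with the largest spread were thus 3 of the 5 transcription factors and fibronectin, and both epithelial genes lay in the low part. These SDs are not measured alike, since Cdh1 is a mean of 10 spots and each other member rests on 1. Snai2 and Zeb1 were dim, with mean processed signals of 109.1 and 145.8, as was Zeb2, at 112.4, which varied little. The part of spot number and signal in the spread was not tested.

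Of the members, 5 were higher and 5 lower in both siRNAs against Control, where 52.9% of all genes were higher, with a median difference of 0.02 beside 0.01 over all genes. For siRNA 1 against Control 7 were higher and 3 lower (58.2% of all genes higher), with a median of 0.02 beside 0.02, and for siRNA 2 against Control 6 were higher and 4 lower (49.8%), with a median of 0.02 beside -9e-04 over all genes. For siRNA 2 against siRNA 1, 3 were higher and 7 lower (42.4%), with a median of -0.06 beside -0.03.

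The slides were compared within groups in the same way. On slide 1, 1330 genes (5.93%) differed from the other slides, of which 152 (0.678%) were higher and 1178 (5.25%) lower, and 0 of 10 members were among them. The nearest was Vim, higher by 0.15 on slide 1 with limma's adjusted p of 0.6558. Within slides the siRNA arrays of slide 1 lay above their Control for Snai1, Snai2, Zeb1, Vim and Fn1, by between 0.14 and 1.97. On slide 2 siRNA 1 replicate 3 lay below its Control for each of these 5 genes, by between -0.94 and -0.07. On slide 3 both siRNA arrays lay above Control for Snai2 (0.33 and 0.57), Zeb1 (0.41 and 0.20), Vim (0.01 and 0.08) and Fn1 (0.05 and 0.28) and below it for Snai1 (-0.26 and -0.62). For Snai2, Zeb1, Vim and Fn1, 4 of 5 siRNA arrays thus lay above the Control array of their slide. The 5 arrays are set against only 3 Control arrays, and these genes varied together, so their counts are not independent. The share of all genes with this pattern was not counted.

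**Figure D3:**
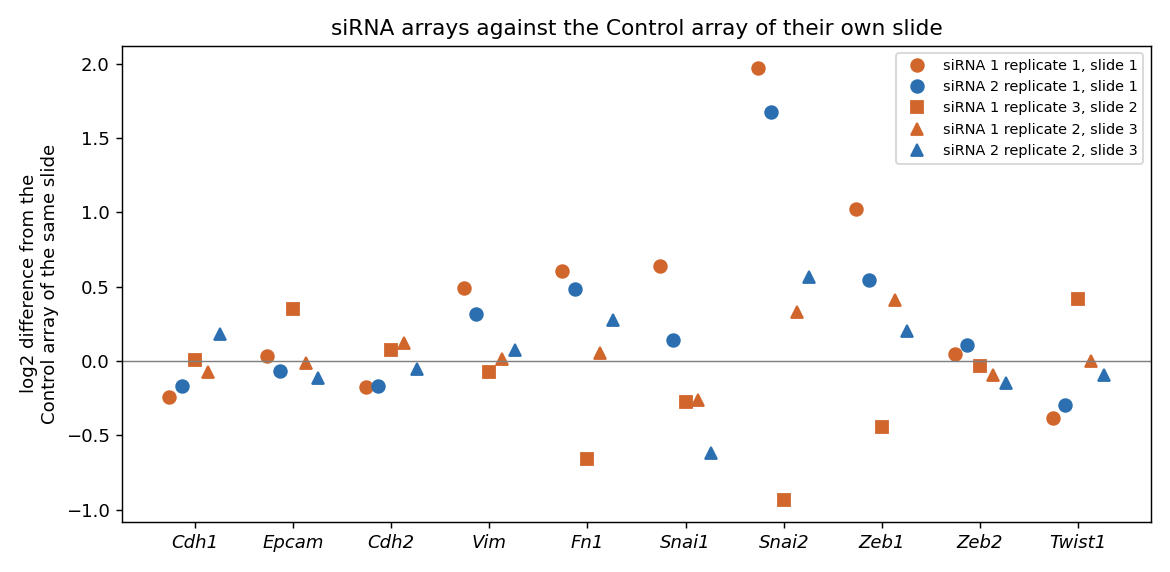
Log2 difference of each siRNA array from the Control array of the same slide (y axis) for the 10 genes (x axis), with 1 point per siRNA array and slides told apart by marker. For Snai2 the points lie at 1.97 and 1.68 on slide 1, at -0.94 on slide 2 and at 0.33 and 0.57 on slide 3.

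Several members varied together across the arrays, across groups and slides alike. Control replicate 2, siRNA 1 replicate 1 and siRNA 2 replicate 1 were the 3 highest arrays for Fn1, Snai2, Zeb1 and Vim, an order that 10.3% of all genes showed. The same 3 arrays were the lowest for Twist1 and Cdh2, as for 9.21% of genes. These arrays belong to all 3 groups and to 2 slides, and were singled out after their values were seen. Their naive stem cell markers stood highest, with a median of 0.57, 0.98 and 0.42 above the Control mean, against -0.35 to 0.29 on the other arrays. Their neuroectoderm markers stood lowest, at -0.05, -0.62 and -0.39, though Control replicate 1, at -0.03, lay close. Their endoderm markers lay at 0.03, -0.27 and -0.84, within the range of the others. Streak and mesoderm markers lay at -0.20, -0.67 and -0.71, beside -0.69 on siRNA 2 replicate 2. Those of trophectoderm lay at 0.05, 0.67 and 0.31, beside 0.16 on siRNA 1 replicate 2. Neither list, nor those of fibroblasts and of the formative and primed epiblast, set the 3 arrays apart. The part of these marker levels in the members' values was not tested.

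Over the 8 arrays, 5 of 45 pairs of members passed an exact two-sided permutation test of Pearson's r over 40320 orders, adjusted over the 45 pairs. The share of all gene pairs that would pass was not counted, so nothing particular to the members is read from this count. Snai2 and Vim had r = 0.91 (exact permutation p = 7.44e-05, adjusted p = 0.00335) and Spearman's rho = 0.98 (exact p = 0.000397, adjusted p = 0.00893). Snai2 and Zeb1 had r = 0.91 (exact p = 0.000967, adjusted p = 0.0184) and rho = 0.95 (exact p = 0.00114, adjusted p = 0.0171). Fn1 and Snai2 had r = 0.93 (exact p = 0.00124, adjusted p = 0.0184) and rho = 0.86 (exact p = 0.0107), whose adjusted p of 0.0603 missed the threshold. With each group's mean subtracted, Fn1 and Snai2 had r = 0.98, and with each slide's mean subtracted 0.92.

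Zeb1 and Vim had r = 0.92 (exact p = 0.00213, adjusted p = 0.0192) and rho = 0.90 (exact p = 0.00456, adjusted p = 0.0411). Twist1 ran the other way, with r = -0.92 against Fn1 (exact p = 0.00164, adjusted p = 0.0184) and rho = -0.98 (exact p = 0.000397, adjusted p = 0.00893). With the 2 arrays farthest from the median left out, r was 0.91 for Fn1 and Snai2, 0.96 for Snai2 and Vim, 0.85 for Snai2 and Zeb1, -0.87 for Fn1 and Twist1, and 0.70 for Zeb1 and Vim. With each slide's mean subtracted, r was 0.94 for Snai2 and Vim, 0.91 for Snai2 and Zeb1, 0.90 for Zeb1 and Vim, and -0.99 for Fn1 and Twist1. No slide held enough arrays for a correlation of its own. The test above exchanges all 8 arrays freely, although arrays of a slide resemble each other. With arrays exchanged only within slides, on slide-centred values, 72 orders allow no exact p under 0.0139. That p was reached by Fn1 and Snai2, Fn1 and Twist1, and Snai2 and Vim, while the exact permutation p was 0.0417 for Snai2 and Zeb1 and 0.0694 for Zeb1 and Vim. Exchanged only within groups, the exact permutation p was 0.0139 for Fn1 with Snai2 and with Twist1, 0.0278 for Snai2 with Vim and with Zeb1, and 0.0556 for Zeb1 and Vim. The restricted tests were run only on the pairs that had passed the free test on the same values, and their p-values are not adjusted. Even without adjustment, Zeb1 and Vim missed 0.05 in both. The value for Fn1 and Twist1 depended on the scaling, at -0.63 with median scaling.

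No pair with Cdh1 passed this test. Its r was -0.62 with Snai1 (exact p = 0.0836, adjusted p = 0.251) and rho -0.76 (exact p = 0.0368, adjusted p = 0.127), and r moved to -0.09 with median scaling. It was also below 0 with Zeb1 (-0.53), Snai2 (-0.46), Zeb2 (-0.43), Vim (-0.42), Fn1 (-0.25) and Epcam (-0.13). It was above 0 with Twist1 (0.29) and Cdh2 (0.03). With Epcam it turned to 0.54 under median scaling and to 0.37 with each group's mean subtracted. With each slide's mean subtracted it was -0.78 with Snai1, -0.66 with Zeb1, -0.60 with Zeb2, -0.57 with Vim and -0.51 with Snai2. It was then -0.27 with Fn1, -0.21 with Epcam, 0.36 with Twist1 and 0.06 with Cdh2. Many other genes shared the pattern of Fn1, since 0.83 with Zeb1 exceeded the r of 94.6% of named genes, 0.79 with Vim that of 92.2% and 0.93 with Snai2 that of 99.3%. The r of -0.92 between Fn1 and Twist1 exceeded that of 1.38% of named genes. Such shares were not computed for Snai2 and Vim, Snai2 and Zeb1, or Zeb1 and Vim.

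**Figure D4:**
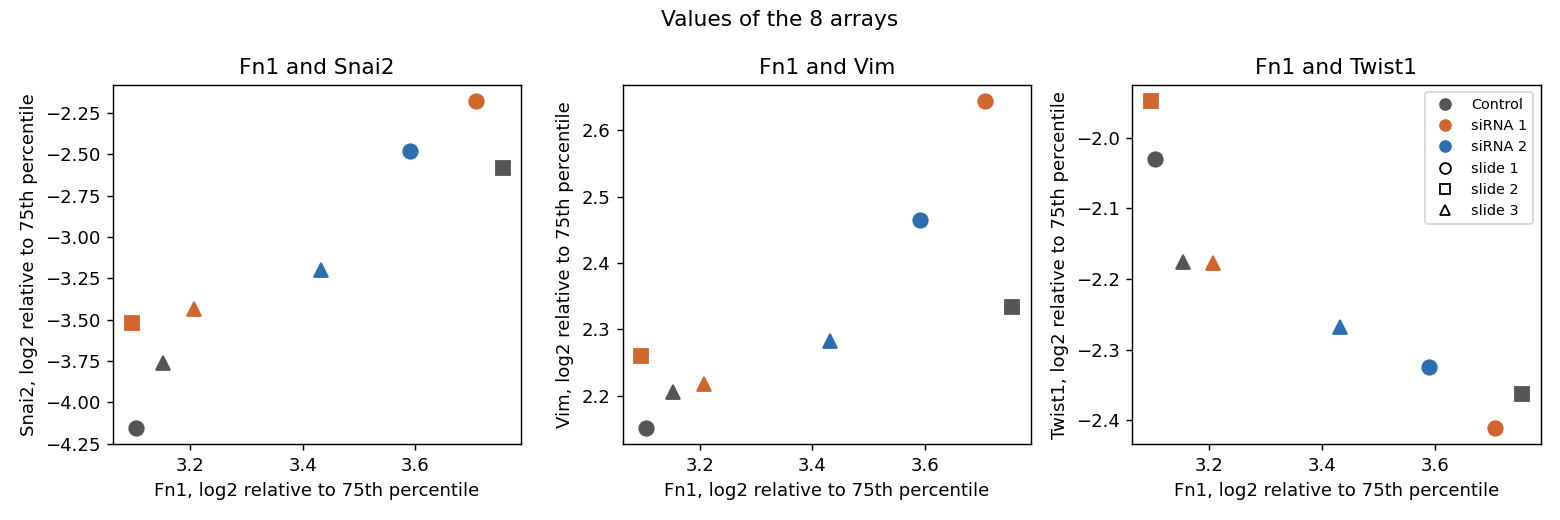
Log2 level of Snai2, Vim and Twist1 (y axes, 1 panel each) against that of Fn1 (x axis) on the 8 arrays, coloured by group with marker shape for slide. Control replicate 2, siRNA 1 replicate 1 and siRNA 2 replicate 1 lie at the high end of Fn1, and Twist1 runs against Fn1 with r = -0.92.

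**Figure D5:**
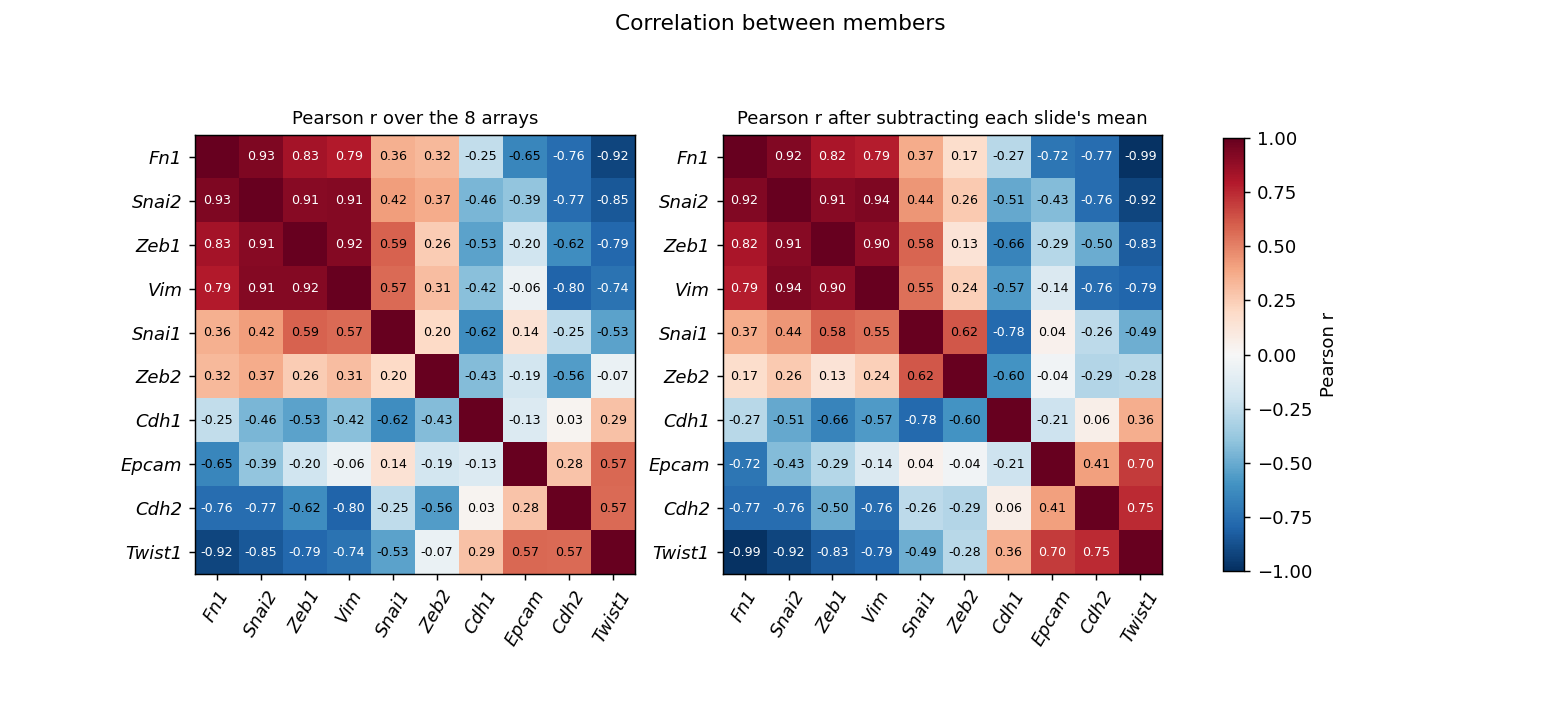
Pearson's r over the 8 arrays between each pair of the 10 genes (rows and columns), coloured from -1 to 1. Fn1, Snai2, Zeb1 and Vim form a block of r between 0.79 and 0.93, and Twist1 and Cdh2 are negative against it.

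The named genes most like Cdh1 and Fn1 were taken by r over the 8 arrays, as a description. For Cdh1 these included Fign (r = 0.98), Mthfd2 (0.98) and Zfp932 (0.97). For Fn1 they included Csrnp1 (r = 0.99), Zfp354a (0.98), Sdc4 (0.98), a proteoglycan that binds fibronectin, and Dcp2 (0.98). With each slide's mean subtracted, r lay between 0.97 and 1.00 for the 3 genes named for Cdh1 and between 0.98 and 0.99 for the 4 named for Fn1.

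Of the other genes of the transition 0 were called in either direction in any list or comparison. Of 41 epithelial junction and identity genes tested, 15 were above and 26 below Control in both siRNAs, with a median difference of -0.01 beside 0.01 over all genes. Among those with the smallest p was the desmosomal cadherin Dsc2, at 0.26 (SE 0.13) with limma's adjusted p of 0.9999. Of 41 mesenchymal genes 36 were tested, 10 above and 26 below, with a median of -0.09. Their smallest p belonged to the smooth muscle genes Tagln, at -0.56 (SE 0.13, adjusted p = 0.933), and Acta2, at -0.52 (SE 0.13, adjusted p = 0.9724).

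Of 27 transcription factors of the transition 25 were tested, 10 above and 15 below Control, with a median of -0.05. The chromatin protein Hmga2 lay at -0.55 (SE 0.13, limma's adjusted p = 0.9164). Of 33 upstream signals and regulators 31 were tested, 16 above and 15 below, with a median of 0.01. Fgf4, a growth factor of pluripotent cells, lay at 0.44 (SE 0.08, limma's adjusted p = 0.6769), and the Hippo kinase Lats2 at -0.54 (SE 0.11, adjusted p = 0.7417). Of 23 listed partners of gastrulation 20 were tested, 6 above and 14 below, with a median of -0.15. Fgf8, the growth factor of the primitive streak, lay at -1.08 (SE 0.25, limma's adjusted p = 0.9164), and Eomes, a T-box factor of the streak, at -0.62 (SE 0.18, adjusted p = 0.9999).

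At an unadjusted p under 0.05, where 3.58% of all genes passed for both siRNAs against Control, 0 of 41 epithelial genes, 7 of 36 mesenchymal genes, 4 of 25 transcription factors, 3 of 31 upstream genes and 6 of 20 gastrulation partners passed. For siRNA 1 against Control, where 3.5% of all genes passed, the counts were 1, 6, 4, 3 and 2 in the same order. For siRNA 2 against Control, where 3.35% of all genes passed, they were 0, 5, 4, 5 and 7. Marker lists of cell types leaned beside these lists, with 0 genes called in limma's test in any of them. The lists share genes, so their counts are not independent. Most streak and mesoderm markers are also gastrulation partners, and some mesenchymal genes are also endoderm markers. Fgf4 is both an upstream signal and a naive marker. In both siRNAs against Control 14 of 15 naive stem cell markers lay above 0, with a median of 0.44. Of 21 endoderm markers tested 18 lay below 0, with a median of -0.56, and of 10 primitive streak and mesoderm markers 8 lay below 0, with a median of -0.51. For siRNA 2 against Control the endoderm median was -1.03, and 14 of 21 endoderm markers did not overlap between the groups, against 16.9% of all genes. For siRNA 1 against Control the endoderm median was -0.18, with 14 of 21 markers below 0. There 1 of 21 endoderm markers did not overlap, against 7.9% of all genes. The streak median was -0.35 for siRNA 1 and -0.63 for siRNA 2, and the naive median 0.49 and 0.33. The summed endoderm level ranged from 98.5 to 148.2 in Control, from 97.7 to 134.2 in siRNA 1 and from 94.5 to 114.5 in siRNA 2, and 19 to 23 of its 23 markers were well above background. The part of these markers in the values of the transition genes was not tested.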

How the data were processed

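Per the labels, total RNA was labelled with Cy3 and hybridised to 1-colour arrays. The authors' deposited scanner files hold intensity values of 44397 spots per array from Feature Extraction 10.7.3.1 (Agilent, as read per the file headers), with the processed intensity already corrected for background. A deposited value table holds log2 values that follow the processed intensity relative to the 75th percentile, centred per probe. Its columns for Control 2 and Control 3 follow each other's scanner array, so scanner files were used. Control replicates 2 and 3 are named here as in the scanner files, and which naming is right is not known.

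Spots of a probe were averaged on the log2 scale after removing control spots and outliers. Of 39429 probes, 26424 were named by accession through RefSeq (GRCm38.p6), and 13005 were not. Testing required a probe flagged well above background throughout at least 1 group, leaving 22427 genes, and the probe with the highest mean stood for a gene. The fit over 3 groups used limma 3.58.1 in R 4.3.3 (5 residual and 2.089 prior degrees of freedom), with Benjamini-Hochberg adjustment over all genes and a threshold of 0.05. It was tested on simulated data of independent arrays without slide differences, so that test does not cover the resemblance of arrays on a slide. Correlations between members were tested by exact permutation over the 45 pairs. The pairs that passed were tested again within slides or groups, without adjustment. Both tests were additions made with the values known.

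All 10 members are named, and of each pathway list the 2 genes with the smallest p for both siRNAs against Control, since none passed, and the 5 named genes with the highest correlation with Cdh1 and with Fn1. Some genes taken by this rule are not reported here, though counts hold them. The members and lists were chosen with earlier results of these data known. Alternatives were quantile normalization, median scaling, normexp with an offset of 50 (on the median spot signal, in place of the mean spot signal of the plan), the deposited value table, no background correction, changed filters and probe summaries, only the groups compared, a variance trend, array weights, replicate or slide blocks, and leaving out each array or slide 1.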

Additional observations from a re-analysis of the deposited data

How the results depend on the processing

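With array weights 24 genes passed for both siRNAs against Control, with only the groups compared in the fit 1 gene passed for siRNA 2 against siRNA 1, and with 1 array left out between 0 and 1 genes passed for siRNA 2 against Control, the 1 coming without siRNA 2 replicate 2; the causes were not tested. The other settings and comparisons gave 0 genes. No member passed under any alternative run. As the scanner files are named, replicate numbers did not pair all samples. Deviations of same-numbered arrays correlated at 0.33, 0.34 and 0.70 for replicate 1. They correlated at 0.01, -0.04 and 0.63 for replicate 2 and at 0.05 for replicate 3. The value table names Control 2 and Control 3 the other way round, and which naming is right is not known. With its naming, replicate number and slide would coincide. The values with Control would then be 0.56 and 0.55 for replicate 2 and 0.04 for replicate 3. The values of 0.33 and above all belong to arrays that also share a slide, and the 7 pairs on a shared slide ran from 0.04 to 0.70. With the scanner files' replicate number as a block the count for both siRNAs against Control was 0 and the difference of Snai2 was 0.47. Of the members' differences from Control for both siRNAs, 121 of 130 values under other settings kept their sign, as did 126 of 140 for siRNA 1 against Control, 129 of 140 for siRNA 2 against Control and 131 of 140 for siRNA 2 against siRNA 1. The changed filters, the variance trend and the fit of only the groups compared left each member's difference as it was. These settings count in the totals above, although no sign could turn under them. Signs that turned, all of differences that never passed, were as follows.

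With quantile normalization, for siRNA 1 against Control Cdh2 was -0.0074 and Twist1 -0.011, and for siRNA 2 against Control Epcam was -0.013. It gave, for siRNA 2 against siRNA 1 Zeb2 0.031, and for slide 1 against the others Twist1 0.021. With median scaling, for siRNA 1 against Control Cdh2 was -0.032, Snai1 -0.0035 and Twist1 -0.028, and for siRNA 2 against siRNA 1 Cdh2 was 0.0010, Zeb2 0.038 and Vim 0.076. This scaling gave, for slide 1 against the others Cdh2 0.038 and Twist1 0.082. With normexp with offset 50 and quantile normalization, for siRNA 1 against Control Snai1 was -0.026, and for siRNA 2 against Control Epcam was -0.062. The same setting gave, for siRNA 2 against siRNA 1 Zeb2 0.028, and for slide 1 against the others Epcam -0.068. With no background correction, for siRNA 1 against Control Snai1 was -0.0065, and for siRNA 2 against Control Epcam was -0.060. That choice gave, for siRNA 2 against siRNA 1 Vim 0.012, and for slide 1 against the others Epcam -0.054. In the deposited value table, for siRNA 1 against Control Cdh2 was -0.0025, and for siRNA 2 against Control Epcam was -0.0076. With array weights, for both siRNAs against Control Cdh1 was 0.013 and Epcam -0.019, and for siRNA 1 against Control Snai1 was -0.25 and Fn1 0.045. The weights gave, for siRNA 2 against Control Epcam -0.077, and for siRNA 2 against siRNA 1 Vim 0.092. With the slide as a block, for siRNA 2 against Control Epcam was -0.031, and for siRNA 2 against siRNA 1 Zeb2 was 0.0030. Leaving out the arrays of slide 1 leaves siRNA 2 with 1 array. Without them, for both siRNAs against Control Cdh1 was 0.075, Cdh2 0.053, Snai2 -0.16, Zeb1 -0.051, Twist1 0.10, Vim -0.0093 and Fn1 -0.16. For siRNA 1 against Control, Snai1 was then -0.27, Snai2 -0.30, Zeb1 -0.018 and Vim -0.031. The same setting gave, for siRNA 2 against Control Cdh2 0.0095, Snai2 -0.023, Zeb1 -0.085, Twist1 0.0010 and Fn1 -0.022, and for siRNA 2 against siRNA 1 Vim 0.043.

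Leaving out 1 array at a time, the difference of both siRNAs against Control ran for Cdh1 from -0.072 to 0.032, Twist1 from -0.14 to 0.032, Fn1 from -0.030 to 0.30, Epcam from -0.027 to 0.11, Snai1 from -0.19 to 0.030, Cdh2 from -0.073 to 0.0052 and Zeb2 from -0.10 to 0.0081. For siRNA 1 against Control it ran for Snai1 from -0.17 to 0.21, Cdh2 from -0.076 to 0.080, Zeb2 from -0.067 to 0.020, Twist1 from -0.10 to 0.13 and Fn1 from -0.19 to 0.21. For siRNA 2 against Control it ran for Epcam from -0.088 to 0.049, Zeb1 from -0.0013 to 0.38, Cdh1 from -0.044 to 0.12 and Zeb2 from -0.17 to 0.042. For siRNA 2 against siRNA 1 it ran for Zeb1 from -0.34 to 0.12, Vim from -0.092 to 0.13, Cdh2 from -0.15 to 0.0059, Snai2 from -0.15 to 0.64 and Zeb2 from -0.15 to 0.068. For slide 1 against the others it ran for Cdh1 from -0.081 to 0.085, Epcam from -5e-04 to 0.084, Snai1 from -0.022 to 0.50, Snai2 from -0.25 to 1.05, Twist1 from -0.22 to 0.11, Fn1 from -0.13 to 0.39 and Zeb2 from -0.042 to 0.10.

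Among the member probes used in the fit, the lowest processed signal was 51.9, for Snai2, and siRNA 2 has only 2 arrays.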
